A study of Mus musculus with 18 samples.

Results

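The genes described here encode receptors, receptor partners and a ligand of 3 families of vasoactive peptides: the kinin receptors Bdkrb1 and Bdkrb2, the tachykinin receptors Tacr1 and Tacr2, the calcitonin receptor-like receptor Calcrl with its partners Ramp1, Ramp2 and Ramp3, and adrenomedullin (Adm). They are 9 of the 22238 gene symbols in the deposited count table, taken by symbol. The choice was made with results in view, because Bdkrb1, Tacr1 and Ramp3 were higher after doxorubicin under estradiol. In the contrast of doxorubicin against vehicle under estradiol, and in the interaction that contains it, the values of these 9 genes are therefore a description with no test.

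The RNA came from the whole uterus of ovariectomized CD-1 mice, adults of an outbred stock. Ovariectomy removes the ovaries as a source of steroid hormones, and all 6 groups share it. The groups hold 3 libraries each: doxorubicin with estradiol (DOX E2), vehicle with estradiol (PBS E2), doxorubicin with progesterone (DOX P4), vehicle with progesterone (PBS P4), doxorubicin with oil (DOX OIL) and vehicle with oil (PBS OIL). Doxorubicin is an anthracycline that poisons topoisomerase II, phosphate-buffered saline is its vehicle, and oil is the hormone vehicle. The labels give no dose, time, age in weeks or count of animals per library; p-values cover the spread among libraries, which may be partly technical.

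Kinins are short peptides cut from kininogens by kallikreins. They act on the B2 receptor (Bdkrb2), which many tissues carry in the resting state, and on the B1 receptor (Bdkrb1), which is best known for being induced in injured or inflamed tissue. Substance P acts on the neurokinin receptor Tacr1, and neurokinin A acts on Tacr2, which is known in smooth muscle. Calcrl has little activity alone: with Ramp1 it forms a receptor for calcitonin gene-related peptide (CGRP), and with Ramp2 or Ramp3 a receptor for adrenomedullin, a vasodilator needed for vessel and lymphatic development and for a normal uterus in pregnancy.

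The libraries held 18042357 to 39783785 counts, with the highest total in PBS E2 replicate 1. All 6 uterine markers searched (Esr1, Pgr, Hoxa10, Hoxa11, Hand2 and Msx1) had counts in every group. Summed levels of 10 adipocyte markers ranged from 25.05 to 202.2 CPM in DOX E2 libraries, against 248.5 to 4798 CPM in PBS E2 libraries, and all 10 were lower in DOX E2 by the edgeR test. Lymphatic endothelial markers summed to 92.75 to 188 CPM in DOX E2 libraries, against 286.1 to 424.7 CPM in PBS E2 libraries, with 5 of 6 lower. Epithelial markers summed to 987.8 to 1425 CPM in DOX E2 libraries, against 610.8 to 918.9 CPM in PBS E2 libraries, with 3 of 8 higher. By the same test 20.4% of all tested genes were higher and 20.6% lower in DOX E2. Each defining marker of these 3 lists had counts in every group, and their part in the results below was not tested. In whole tissue a lower level can mean fewer cells of a type or less RNA per cell, and these cannot be told apart.

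Levels are given in CPM, counts scaled to library sizes normalised by edgeR's TMM method, and a fold change is the log2 ratio from the edgeR model with its standard error (SE). A gene was called when its adjusted p from edgeR's quasi-likelihood test (Benjamini-Hochberg over 15494 tested genes) was under 0.05. Of the 9 genes, 8 passed the filter on low counts, and Tacr2 did not.

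More of these genes were called with estradiol than with progesterone, as was true of all tested genes. In the PBS arm, where the PBS E2 libraries also served the contrast by which genes were chosen, 4 of the 8 filtered genes rose with E2 (Bdkrb1, Bdkrb2, Ramp3 and Adm) and Ramp1 fell. Among all tested genes 61.4% were called in that comparison, 29.6% as higher and 31.9% as lower, so a call under E2 is common in this tissue. In the DOX arm 5 of the genes could be tested, since Bdkrb1, Tacr1 and Ramp3 were chosen on the same DOX E2 libraries. Of these 5, Bdkrb2 and Adm rose with E2 and Ramp1 and Calcrl fell, against 72.6% of all tested genes called (35.1% higher and 37.5% lower). Progesterone moved fewer: Ramp1, Ramp2 and Bdkrb2 rose in the PBS arm (31.8% of all genes called, 16.2% higher and 15.6% lower), and in the DOX arm Ramp1 rose and Adm fell (29.8% called, 14.7% higher and 15.1% lower).

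**Figure D1:**
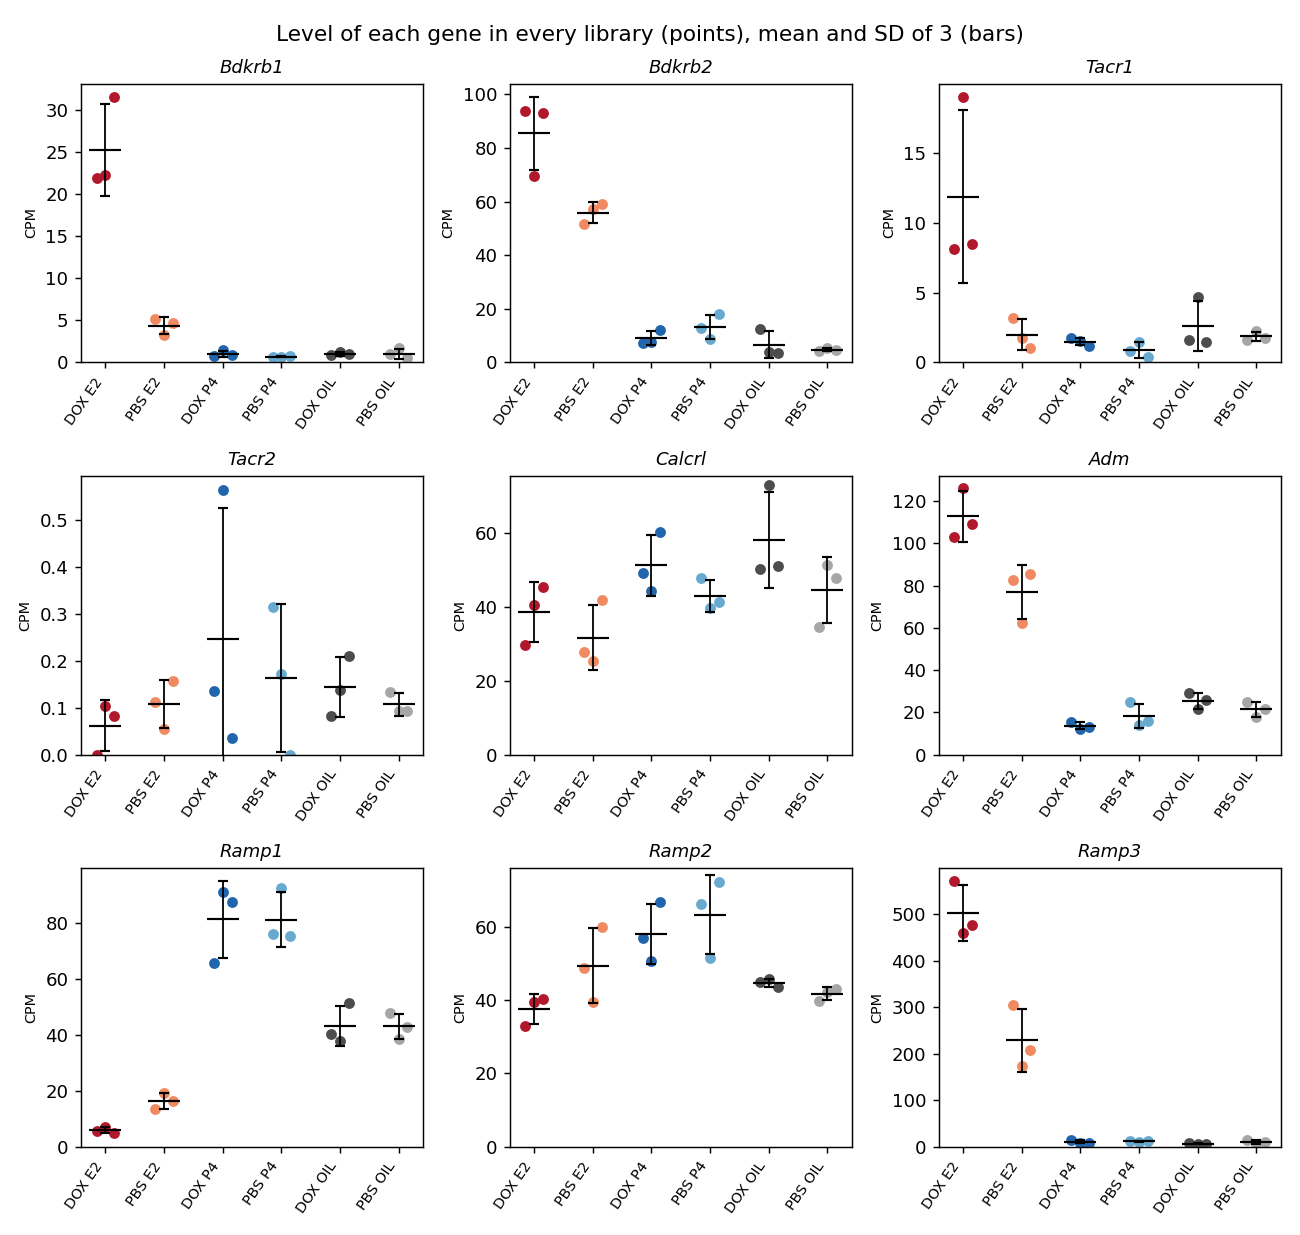
Level in CPM (vertical axis, from 0) of each of the 9 genes in the 6 groups; points are single libraries, bars the mean and SD of 3. Bdkrb1, Bdkrb2, Ramp3 and Adm are higher in both E2 groups than in the other groups, and mean Bdkrb1 is 25.2 CPM in DOX E2 but 4.36 CPM in PBS E2. Ramp1 is high in both P4 groups and lowest in DOX E2, and Tacr2 stays under 0.6 CPM.

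Bdkrb1 (chromosome 12, 105603085 to 105605428, plus strand, GRCm38) encodes the inducible kinin receptor. It measured 21.9, 22.2 and 31.6 CPM in the DOX E2 libraries, against 5.15, 3.25 and 4.66 CPM in the PBS E2 libraries. The DOX P4 libraries had 0.769, 1.43 and 0.868 CPM, against 0.675, 0.647 and 0.757 CPM in PBS P4, 0.829, 1.24 and 0.948 CPM in DOX OIL and 0.936, 1.67 and 0.466 CPM in PBS OIL. Every DOX E2 library thus lay above every PBS E2 library, and every E2 library above all 12 libraries without estradiol, none of which passed 1.67 CPM. In the PBS arm Bdkrb1 was 4.25-fold higher with E2 than with OIL (log2 2.09 ± 0.35 SE, n = 3 each, edgeR adjusted p = 8.5e-05). In the DOX arm the fitted E2 over OIL difference was log2 4.65 ± 0.36, given without a test. With P4 the log2 differences were 0.03 ± 0.37 in the DOX arm (edgeR adjusted p = 0.959) and -0.56 ± 0.39 in the PBS arm (edgeR adjusted p = 0.284), neither called.

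Its neighbour Bdkrb2 (chromosome 12, 105563226 to 105595237, plus strand) starts upstream on the same strand and ends 7847 bases before Bdkrb1 begins. It encodes the constitutive kinin receptor and was the more abundant of the pair per length in each group. Levels were 93.7, 69.6 and 92.9 CPM in DOX E2 libraries and 51.6, 57.1 and 58.9 CPM in PBS E2 libraries, without overlap. They were 7.10, 7.75 and 11.9 CPM in DOX P4, 12.6, 8.84 and 17.97 CPM in PBS P4, 12.6, 3.99 and 3.32 CPM in DOX OIL, and 4.37, 5.29 and 4.57 CPM in PBS OIL. All 6 E2 libraries exceeded all others, and among the rest DOX OIL replicate 1 stood about as high as the P4 libraries. Estradiol raised Bdkrb2 by log2 3.67 ± 0.40 in the DOX arm (edgeR adjusted p = 5.22e-07) and by 3.56 ± 0.40 in the PBS arm (edgeR adjusted p = 1.78e-06), or 12.7-fold and 11.8-fold. Leaving out DOX OIL replicate 1 gave 4.54 in the DOX arm (edgeR adjusted p = 1.69e-08).

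Progesterone raised Bdkrb2 in the PBS arm by log2 1.47 ± 0.39 (edgeR adjusted p = 0.0107), but without PBS P4 replicate 3 the difference was 1.179 (edgeR adjusted p = 0.0582). In the DOX arm the P4 over OIL difference was 0.41 ± 0.38 (edgeR adjusted p = 0.444), and without DOX OIL replicate 1 it was 1.29 (edgeR adjusted p = 0.00667). The difference between the arms was itself not called (log2 -1.06 ± 0.55, edgeR adjusted p = 1). In the PBS arm all 3 P4 libraries lay above all 3 OIL libraries, and the difference stayed between 1.179 and 1.69 whichever library was left out. Only in the DOX arm did the groups overlap, through DOX OIL replicate 1.

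Per length of merged exons, Bdkrb1 made up 43.8 ± 4.89% of the summed kinin receptor RPKM (CPM divided by exon length in kilobases) in DOX E2 libraries and 17.1 ± 3.90% in PBS E2 libraries (SD, n = 3 each). The share was 23.7 ± 8.40% in DOX P4, 12.9 ± 3.13% in PBS P4, 34.3 ± 16.9% in DOX OIL and 34.3 ± 12.2% in PBS OIL. Both OIL groups spread widely, from 14.8% to 45.1% in DOX OIL and from 21.2% to 45.5% in PBS OIL, and the lowest DOX OIL share was that of replicate 1, whose Bdkrb2 level was the highest of its group. The share fell by 21.4 percentage points with P4 in the PBS arm, where an exact 2-sided permutation test gave p = 0.1, the smallest that 3 against 3 libraries allow (adjusted 0.533 over 16 share comparisons).

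Tacr1 (chromosome 6, 82402334 to 82560104, plus strand), the substance P receptor, was a low-abundance transcript outside DOX E2. It had 8.11, 19.0 and 8.46 CPM in DOX E2 libraries, against 3.20, 1.73 and 1.05 CPM in PBS E2 libraries. DOX P4 libraries had 1.72, 1.504 and 1.19 CPM, PBS P4 libraries 0.810, 1.47 and 0.378 CPM, DOX OIL libraries 1.62, 4.68 and 1.47 CPM, and PBS OIL libraries 1.605, 2.23 and 1.77 CPM. Only the 3 DOX E2 libraries stood clear of the others, with replicate 2 the highest of them, and each of the other 5 groups overlapped its neighbours in the order of means. Tacr1 was not called with E2 in the PBS arm (log2 0.13 ± 0.53, edgeR adjusted p = 0.847). The PBS E2 values were the lower side of the contrast by which Tacr1 was chosen, so this result is not independent of the choice. In the DOX arm the fitted E2 difference was 2.19 ± 0.52, with no test, and it ranged from 1.68 without DOX E2 replicate 2 to 2.93 without DOX OIL replicate 2. The P4 differences of -0.82 ± 0.53 in the DOX arm (edgeR adjusted p = 0.261) and -1.06 ± 0.56 in the PBS arm (edgeR adjusted p = 0.159) were not called.

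Tacr2 (chromosome 10, 62252438 to 62265990, plus strand), the neurokinin A receptor, was barely detected, with 58 counts over all 18 libraries. The group sums were 4 counts in DOX E2, 8 in PBS E2, 19 in DOX P4, 11 in PBS P4, 9 in DOX OIL and 7 in PBS OIL. At this depth a difference between groups was not detectable.

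Calcrl (chromosome 2, 84330626 to 84425411, minus strand) encodes the receptor that the Ramp proteins bind. DOX E2 libraries had 29.6, 40.6 and 45.4 CPM and PBS E2 libraries 27.9, 25.3 and 41.8 CPM. DOX P4 had 49.2, 44.3 and 60.2 CPM, PBS P4 47.9, 39.7 and 41.2 CPM, DOX OIL 50.2, 73.0 and 51.1 CPM, and PBS OIL 34.5, 51.3 and 47.9 CPM. Neighbouring groups in the order of means all overlapped, from DOX OIL at the top to PBS E2 at the bottom. The E2 over OIL difference was log2 -0.59 ± 0.22 in the DOX arm (edgeR adjusted p = 0.0222) and -0.49 ± 0.22 in the PBS arm, which was not called (edgeR adjusted p = 0.0595). The call in the DOX arm was lost without DOX E2 replicate 1 (-0.45, edgeR adjusted p = 0.0924), without DOX OIL replicate 2 (-0.39, edgeR adjusted p = 0.134) and with an adipocyte marker score as covariate (-0.39, edgeR adjusted p = 0.212). In the PBS arm it was gained without PBS E2 replicate 3 (-0.74, edgeR adjusted p = 0.00994) or PBS OIL replicate 1 (-0.65, edgeR adjusted p = 0.0217).

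The 3 Ramp genes behaved unlike each other under the same hormones. Ramp3 rose steeply with E2, Ramp1 fell with E2 and rose with P4, and Ramp2 rose with P4 in the PBS arm and was not called with E2.

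Ramp3 (chromosome 11, 6658521 to 6677475, plus strand) encodes a partner that turns Calcrl into an adrenomedullin receptor. It was the most abundant of the 9 transcripts per length in both E2 groups, with 364 ± 43.4 RPKM in DOX E2 and 165 ± 48.8 RPKM in PBS E2 (SD, n = 3 each). In CPM it measured 571, 459 and 477 in DOX E2 libraries, against 304, 174 and 207 in PBS E2 libraries. The other groups were at 14.2, 8.08 and 8.64 CPM in DOX P4, 12.3, 9.49 and 12.5 CPM in PBS P4, 8.54, 5.37 and 6.48 CPM in DOX OIL, and 15.3, 6.73 and 10.4 CPM in PBS OIL. The E2 libraries lay far above the rest, and DOX E2 lay above PBS E2 with no overlap. In the PBS arm E2 raised Ramp3 by log2 4.40 ± 0.31 (edgeR adjusted p = 1.82e-08), a 21.05-fold difference. In the DOX arm the fitted difference was 6.20 ± 0.34, or 73.6-fold, with no test. Progesterone left it uncalled, at 0.59 ± 0.30 in the DOX arm (edgeR adjusted p = 0.151) and 0.07 ± 0.29 in the PBS arm (edgeR adjusted p = 0.865). Of its 1380 exonic bases, 101 overlap a pseudogene on the other strand, and the strand setting of the counting is not stated in the sources used here.

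Ramp1 (chromosome 1, 91179822 to 91225196, plus strand), the partner that makes Calcrl a CGRP receptor, ran the other way. Its libraries had 5.63, 7.07 and 4.97 CPM in DOX E2 and 13.6, 19.2 and 16.5 CPM in PBS E2. With progesterone they had 65.6, 91.2 and 87.5 CPM in DOX P4 and 76.0, 92.7 and 75.3 CPM in PBS P4. Oil libraries had 40.2, 37.9 and 51.5 CPM in DOX OIL and 47.8, 38.7 and 42.7 CPM in PBS OIL. The 3 hormone conditions did not overlap at all, with P4 highest, OIL between and E2 lowest. Estradiol lowered Ramp1 by log2 -2.88 ± 0.19 in the DOX arm (edgeR adjusted p = 2.07e-09) and -1.40 ± 0.17 in the PBS arm (edgeR adjusted p = 3.91e-06). Progesterone raised it by 0.92 ± 0.17 in the DOX arm (edgeR adjusted p = 0.00102) and 0.92 ± 0.17 in the PBS arm (edgeR adjusted p = 0.000988), or 1.89-fold in each.

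Smooth muscle markers moved with Ramp1 under P4. Their sums were 15230 to 27440 CPM in DOX P4 against 6728 to 15000 CPM in DOX OIL, and 13990 to 18520 CPM in PBS P4 against 7586 to 8889 CPM in PBS OIL. In each arm 6 of the 10 markers rose and 0 fell. Among all genes 14.7% were higher with P4 in the DOX arm and 16.2% in the PBS arm. With E2, where Ramp1 fell, 3 markers rose and 0 fell in the PBS arm (29.6% of all genes higher, 31.9% lower). Their sums were 10330 to 11130 CPM in PBS E2. In the DOX arm 2 rose and 2 fell with E2 (35.1% of all genes higher, 37.5% lower). The part of these markers in the Ramp1 result was not tested.

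Ramp2 (chromosome 11, 101246028 to 101259546, plus strand), the other adrenomedullin receptor partner and a partner required for vascular development, kept within a narrow range. It had 33.0, 39.6 and 40.4 CPM in DOX E2, 48.6, 39.6 and 60.0 CPM in PBS E2, 56.8, 50.5 and 66.7 CPM in DOX P4, 66.2, 51.5 and 72.2 CPM in PBS P4, 44.8, 45.7 and 43.5 CPM in DOX OIL, and 39.8, 42.3 and 43.1 CPM in PBS OIL. Both P4 groups lay above their OIL groups in every library. Progesterone raised Ramp2 by log2 0.60 ± 0.15 in the PBS arm (edgeR adjusted p = 0.00681). In the DOX arm the difference was 0.38 ± 0.15 and not called (edgeR adjusted p = 0.0661), though DESeq2's test called it (adjusted p = 0.0316), as did edgeR without DOX P4 replicate 2 (0.47, adjusted p = 0.0437). With E2 the differences were -0.25 ± 0.15 in the DOX arm (edgeR adjusted p = 0.146) and 0.24 ± 0.15 in the PBS arm (edgeR adjusted p = 0.165). Without PBS E2 replicate 2 the PBS arm value was 0.38 (edgeR adjusted p = 0.0336). Ramp2 shares 1103 of its 3301 annotated exonic bases with Vps25 on the same strand, so its counts can hold reads of that gene.

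Within each library the 3 partners can be compared without library scaling. Ramp3 made up 96.4 ± 0.708% of the summed Ramp RPKM in DOX E2 and 88.6 ± 2.99% in PBS E2 (SD, n = 3 each). It made up 14.5 ± 5.52% in DOX P4, 15.2 ± 1.98% in PBS P4, 15 ± 3.24% in DOX OIL and 22.1 ± 6.26% in PBS OIL. Ramp1 held 0.523 ± 0.131% in DOX E2 and 3.14 ± 1.26% in PBS E2, against 51.7 ± 7.34% in DOX P4, 49.6 ± 7.10% in PBS P4, 43.5 ± 4.66% in DOX OIL and 41.1 ± 0.819% in PBS OIL. So Ramp3 made up most of the Ramp messages under E2, and Ramp1 and Ramp2 together most of them without it. Which of Ramp1 and Ramp2 led depended on the length used. With the length of the principal transcript, Ramp2 held 53.0% in DOX P4, 54.6% in PBS P4, 61.3% in DOX OIL and 56.7% in PBS OIL. Ramp3 then held 92.1% in DOX E2 and 78.5% in PBS E2. Of the 16 share comparisons tested (P4 against OIL, and DOX against PBS under OIL and P4), 0 had an adjusted p under 0.533 by exact permutation tests, none of which can go below p = 0.1.

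**Figure D2:**
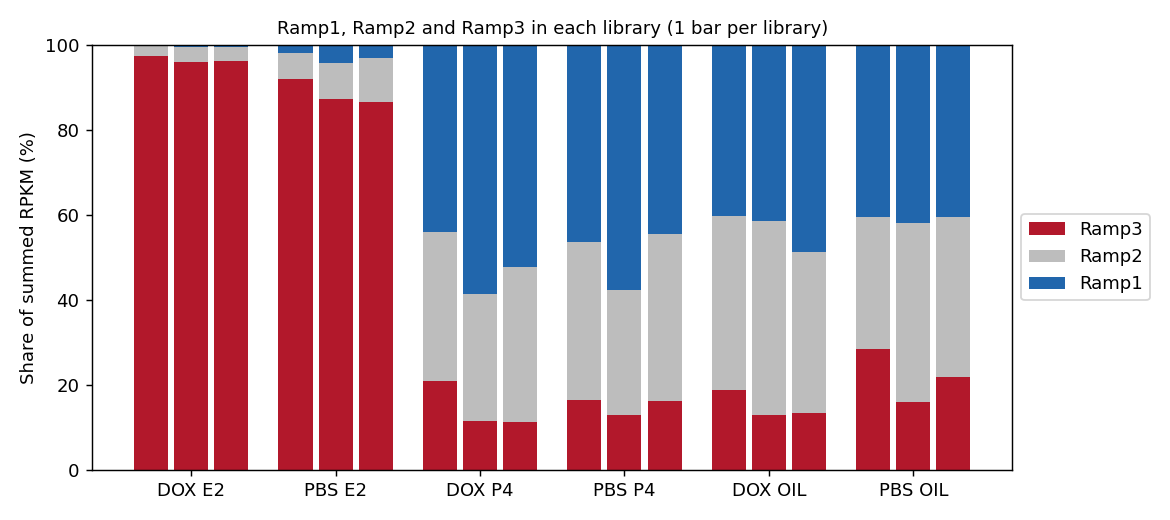
Share in percent (vertical axis) of Ramp3, Ramp2 and Ramp1 in their summed RPKM, with 1 stacked bar per library and merged exon lengths. Ramp3 fills 86.4% to 97.2% of each E2 bar and 11.3% to 28.5% of each bar without estradiol.

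Adm (chromosome 7, 110627661 to 110629820, plus strand) encodes the precursor of adrenomedullin and was the most abundant of the set after Ramp3 under E2, with 69.7 ± 7.40 RPKM in DOX E2 and 47.4 ± 7.90 RPKM in PBS E2. Libraries had 103, 126 and 109 CPM in DOX E2 and 82.6, 62.1 and 85.6 CPM in PBS E2. They had 15.3, 12.1 and 13.2 CPM in DOX P4, 24.7, 14.0 and 15.9 CPM in PBS P4, 29.0, 21.6 and 25.6 CPM in DOX OIL, and 25.0, 17.97 and 21.5 CPM in PBS OIL. All E2 libraries exceeded all others, and DOX P4 lay below DOX OIL in every library. Estradiol raised Adm by log2 2.15 ± 0.20 in the DOX arm (edgeR adjusted p = 8.47e-08) and 1.84 ± 0.20 in the PBS arm (edgeR adjusted p = 1.05e-06), or 4.44-fold and 3.57-fold. Progesterone lowered it by -0.91 ± 0.20 in the DOX arm (edgeR adjusted p = 0.00336). In the PBS arm the difference was -0.24 ± 0.20 (edgeR adjusted p = 0.369), and -0.52 without PBS P4 replicate 1 (edgeR adjusted p = 0.0425). The 2 arms were not shown to differ in this (log2 difference -0.67 ± 0.28, edgeR adjusted p = 1).

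**Figure D3:**
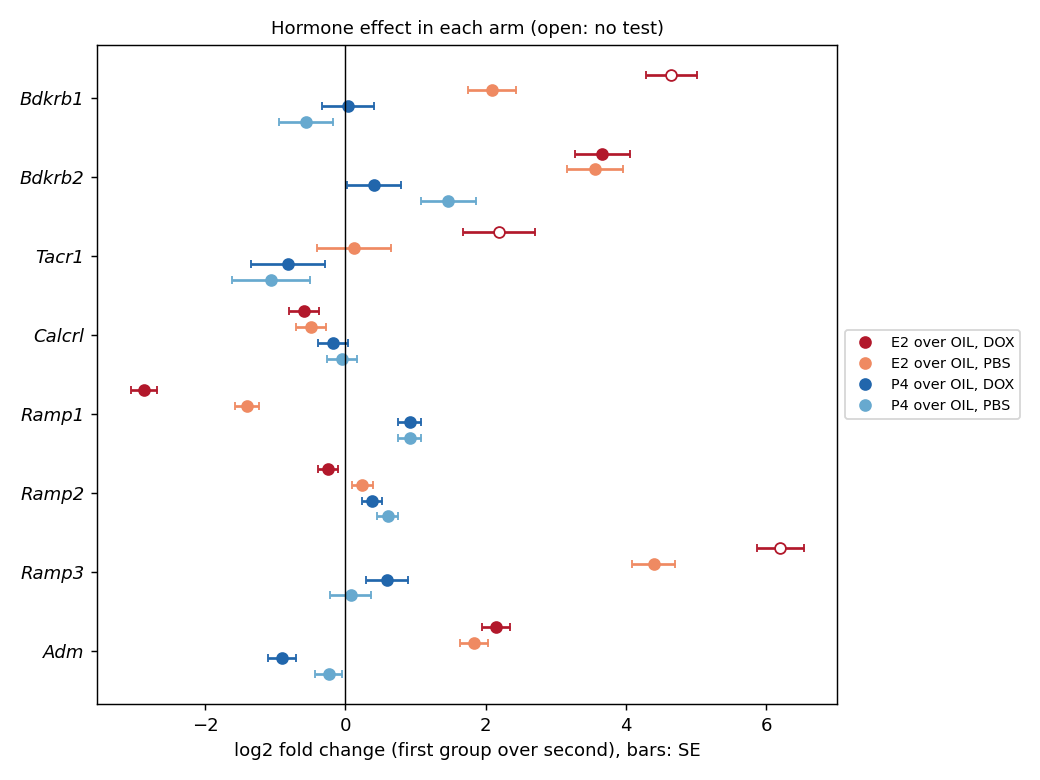
Log2 fold change of E2 over OIL and P4 over OIL (horizontal axis) in the DOX and PBS arms for the 8 genes that passed the filter, with SE bars; open circles have no test. Ramp3 reaches 6.20 in the DOX arm and 4.40 in the PBS arm with E2, and Ramp1 lies at -2.88 and -1.40 with E2 and at 0.92 in both arms with P4.

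Promoter sequence was looked at for genes that moved together or apart under E2. The windows below take up to 250 bases before the RefSeq start (GRCm38.p6), end before the first annotated start, and are shown because Ramp3, Bdkrb2 and Adm rose with E2 in the PBS arm while Ramp1 fell. Capitals mark matches on either strand to GGTCA, the core of the estrogen response element, or to GGGCGG, the GC box.
Ramp3, chr11:6658283-6658520, plus strand: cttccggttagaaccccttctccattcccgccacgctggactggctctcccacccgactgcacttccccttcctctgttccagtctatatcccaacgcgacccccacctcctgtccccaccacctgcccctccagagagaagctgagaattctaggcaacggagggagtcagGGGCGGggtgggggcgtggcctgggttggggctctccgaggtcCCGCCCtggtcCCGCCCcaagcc
Bdkrb2, chr12:105562922-105563171, plus strand: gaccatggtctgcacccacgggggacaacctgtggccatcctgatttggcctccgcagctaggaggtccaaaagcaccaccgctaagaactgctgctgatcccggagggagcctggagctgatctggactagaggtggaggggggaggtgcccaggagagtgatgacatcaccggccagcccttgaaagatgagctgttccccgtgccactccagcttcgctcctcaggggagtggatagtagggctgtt
Adm, chr7:110627407-110627656, plus strand: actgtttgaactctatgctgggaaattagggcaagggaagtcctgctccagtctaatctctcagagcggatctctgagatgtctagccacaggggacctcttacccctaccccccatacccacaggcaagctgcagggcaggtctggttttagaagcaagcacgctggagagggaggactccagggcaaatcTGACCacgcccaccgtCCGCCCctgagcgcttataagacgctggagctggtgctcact
Ramp1, chr1:91179572-91179821, plus strand: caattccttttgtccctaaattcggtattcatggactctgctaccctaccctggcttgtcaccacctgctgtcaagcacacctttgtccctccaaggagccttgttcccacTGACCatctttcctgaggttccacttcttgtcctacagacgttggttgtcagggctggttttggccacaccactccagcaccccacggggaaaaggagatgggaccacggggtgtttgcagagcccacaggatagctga

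The Ramp3 window holds 3 GC boxes, whose first bases lie 78, 35 and 24 bases before the RefSeq start. Adm has 1 GGTCA match 58 bases and 1 GC box 42 bases before its start, Ramp1 has 1 GGTCA match at 139 bases, and Bdkrb2 has 0 matches. The full element GGTCANNNTGACC and the AP-1 site TGANTCA were found in 0 of the 7 windows available for the set. All searches covered the 250 bases before the RefSeq start. For Tacr1, Calcrl and Ramp3, only the first 109, 105 and 238 of these lie before the first annotated start. Among 32851 RefSeq windows of 250 bases, 0.0639% hold the full element, 35.2% hold GGTCA, 6.75% hold the AP-1 site and 32.7% hold the GC box. GGTCA is part of the full element, so these searches overlap. A match is a string of letters here and not a shown site.

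In the contrast of DOX against PBS under E2, from which the genes were chosen, values are a description. Fitted log2 differences were 2.53 ± 0.32 for Bdkrb1, 2.54 ± 0.52 for Tacr1 and 1.14 ± 0.26 for Ramp3, the 3 genes named in the choice. Ramp1 stood at -1.48 ± 0.18. Bdkrb2 (0.61 ± 0.35), Adm (0.56 ± 0.19), Calcrl (0.29 ± 0.22) and Ramp2 (-0.39 ± 0.15) were nearer to 0. Over all tested genes 41% were called in this contrast, 20.4% as higher and 20.6% as lower in DOX E2, with a median log2 difference of 0.02. Without any 1 library the differences lay between 2.33 and 2.67 for Bdkrb1, 2.02 and 3.09 for Tacr1, 0.97 and 1.40 for Ramp3, and -1.63 and -1.35 for Ramp1. With the adipocyte marker score as covariate they were 3.21 for Bdkrb1, 2.81 for Tacr1, 1.41 for Ramp3 and -2.01 for Ramp1. That score did not overlap between the groups, at -1.7, -1.67 and 3.72 in DOX E2 and 8.1, 4.05 and 5.84 in PBS E2. The adjusted values therefore extrapolate along the score and are a description only.

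Without estradiol, DOX was compared with PBS in libraries that took no part in the choice. Of the 8 filtered genes 0 were called for DOX against PBS under OIL, where 0.0129% of all genes were called (2 genes, with 1253 at an unadjusted p under 0.05). Under P4, 0 of 8 were called, with 0% of all genes (822 at an unadjusted p under 0.05, and 10 genes by DESeq2). Bdkrb1 differed by log2 -0.03 ± 0.38 under OIL (edgeR adjusted p = 0.997) and 0.57 ± 0.38 under P4 (edgeR adjusted p = 0.908). Tacr1 differed by 0.47 ± 0.53 under OIL (edgeR adjusted p = 0.878) and 0.72 ± 0.56 under P4 (edgeR adjusted p = 0.928). Ramp3 was at -0.67 ± 0.30 under OIL (edgeR adjusted p = 0.603), with the sign opposite to that under E2, and at -0.15 ± 0.29 under P4 (edgeR adjusted p = 0.956). Ramp1 was within 0.01 of 0 under both, with an SE of 0.16 to 0.17. The P4 by DOX interaction called 0 of the 8 genes (0.00645% of all genes, 525 at an unadjusted p under 0.05).

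The E2 by DOX interaction contains the contrast used for the choice, so its fitted values are again given without a test: 2.56 ± 0.49 for Bdkrb1, 2.06 ± 0.73 for Tacr1, 1.81 ± 0.40 for Ramp3, -1.48 ± 0.25 for Ramp1, 0.32 ± 0.27 for Adm and 0.11 ± 0.53 for Bdkrb2. With 1 library left out, the value for Tacr1 ranged from 1.55 (without DOX E2 replicate 2) to 2.81 (without DOX OIL replicate 2). That for Bdkrb2 changed sign, from -0.20 without DOX OIL replicate 3 to 0.98 without DOX OIL replicate 1. Across all genes 22.9% were called, 10.1% with a positive and 12.8% with a negative interaction.

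**Figure D4:**
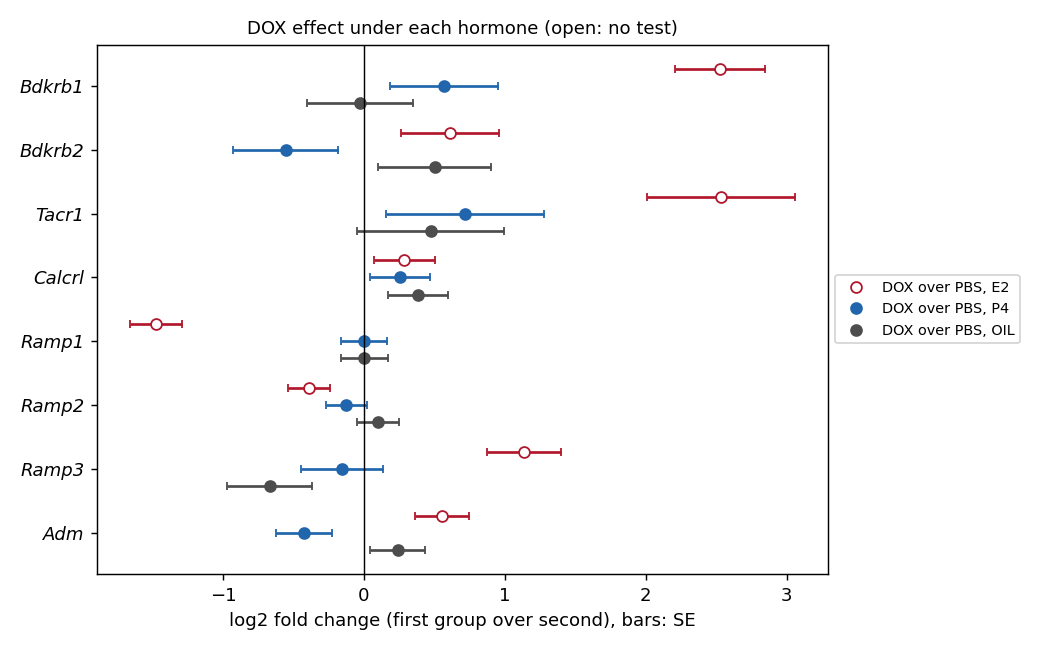
Log2 fold change of DOX over PBS (horizontal axis) under E2, P4 and OIL for the 8 genes that passed the filter, with SE bars; open circles, all under E2, have no test. Bdkrb1 and Tacr1 stand at 2.53 and 2.54 under E2 and Ramp1 at -1.48, while under P4 and OIL values lie between -0.67 and 0.72.

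Of the ligand genes, 9 in number beside Adm, 4 passed the filter, and Kng1 (95 counts in all libraries), Tac1 (58), Tac4 (7), Adm2 (133) and Iapp (16) did not. These genes encode a kininogen, the precursor of substance P and neurokinin A, hemokinin, intermedin and amylin. Their messages were near the detection limit in most libraries. Adm2 reached 2.39 CPM in PBS E2 replicate 1, against 0.163 and 0.262 CPM in the other PBS E2 libraries. Calca, which encodes calcitonin and CGRP, rose with progesterone. It had 30.45, 9.78 and 30.4 CPM in DOX P4 libraries, against 0.456, 0.413 and 0.316 CPM in DOX OIL. In the other arm it had 14.7, 23.8 and 21.9 CPM in PBS P4 libraries, against 0.267, 0.325 and 0.280 CPM in PBS OIL. P4 and OIL libraries were far apart in both arms, and the differences were log2 5.86 ± 0.62 in the DOX arm (edgeR adjusted p = 2.27e-05) and 6.09 ± 0.64 in the PBS arm (edgeR adjusted p = 1.95e-05). Calcb, another CGRP gene, summed to 129 counts in DOX P4 against 7 in DOX OIL (edgeR adjusted p = 0.00118), and to 98 counts in PBS P4 against 2 in PBS OIL (edgeR adjusted p = 0.00054). Calca, Calcb and Ramp1, the CGRP receptor partner, were therefore called higher with P4 in each arm. Counts per gene do not show whether the Calca message was of the calcitonin or the CGRP form. The 4 filtered ligand genes were Calca, Calcb, Tac2 and Kng2. Calcb passed the filter only through its P4 libraries, with 1 count in DOX E2 and 1 in PBS E2. Its calls, and any count over the filtered ligand genes, therefore lean toward P4 and are no result about the list. Of these 4, 2 were called higher (Calca and Calcb) and 0 lower in each arm, beside 14.7% of all genes higher in the DOX arm and 16.2% in the PBS arm. With 1 library left out, 0 to 2 were lower in the PBS arm. Mean Kng2, another kininogen gene, was 0.895 CPM in DOX P4 against 1.93 in DOX OIL. It was 0.532 CPM in PBS P4 against 2.31 in PBS OIL, where replicate 2 had 5.06 CPM. Under E2 the ligand call was Tac2 in the PBS arm (log2 -2.94 ± 0.93, edgeR adjusted p = 0.0123), with 7 counts in PBS E2 and 47 in PBS OIL. That call was lost without PBS OIL replicate 2 (-1.55, edgeR adjusted p = 0.168).

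Among other receptors for these peptides, Ackr3, an atypical chemokine receptor that also binds and clears adrenomedullin, rose with E2. It had 172, 165.6 and 197.8 CPM in DOX E2 libraries, against 27.6, 17.1 and 21.9 CPM in DOX OIL, and 147.7, 75.6 and 134.9 CPM in PBS E2 libraries, against 20.4, 25.8 and 22.6 CPM in PBS OIL. The log2 differences were 3.01 ± 0.37 in the DOX arm (edgeR adjusted p = 2.16e-06) and 2.38 ± 0.36 in the PBS arm (edgeR adjusted p = 3.49e-05). Crcp, a CGRP receptor component that is also a subunit of RNA polymerase III, rose by 1.08 ± 0.11 in the DOX arm (edgeR adjusted p = 2.34e-07) and 0.83 ± 0.11 in the PBS arm (edgeR adjusted p = 8.31e-06). Of the 5 genes of this list 3 passed the filter, and Tacr3 (98 counts) and Calcr (1 count) did not.

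**Figure D5:**
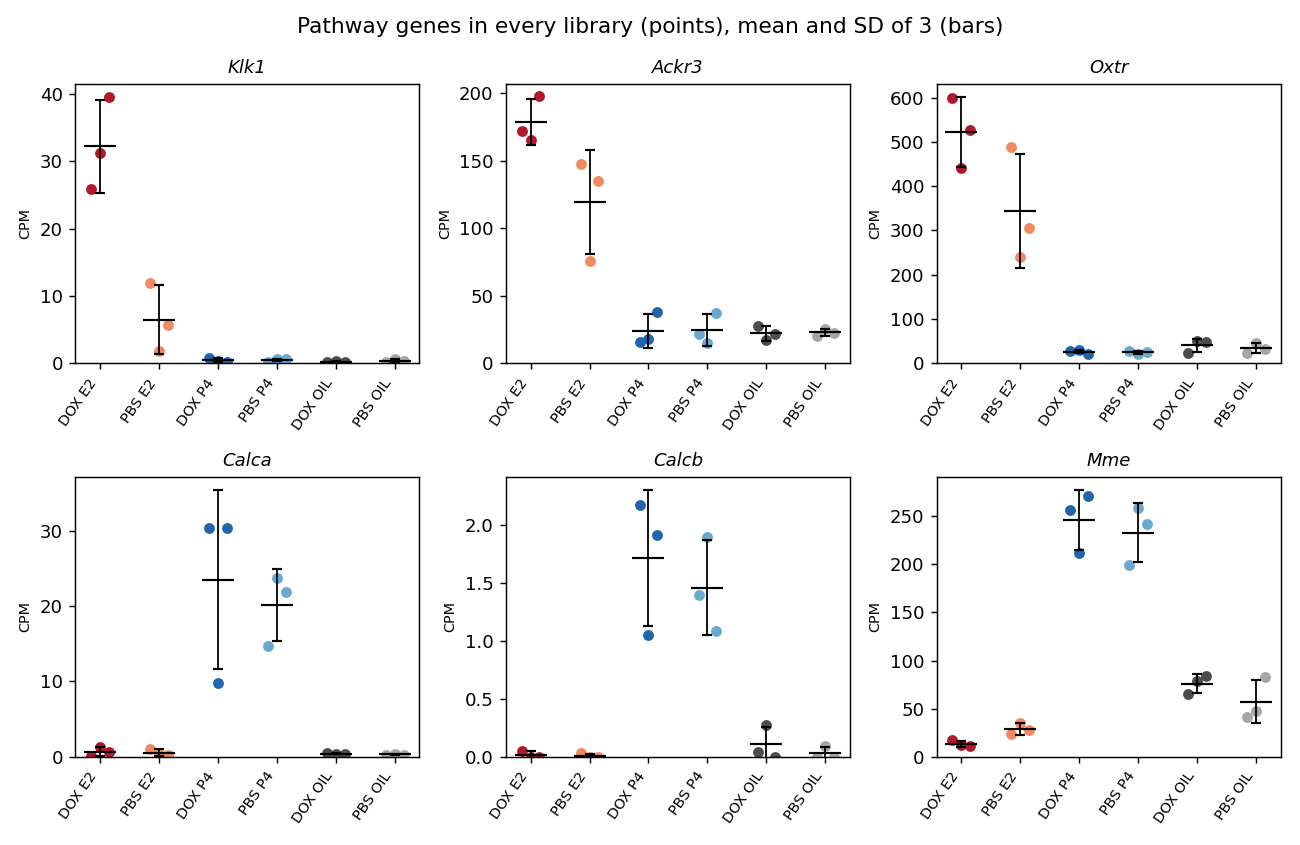
Level in CPM (vertical axis, from 0) of 6 genes of the same pathways in the 6 groups; points are single libraries, bars the mean and SD of 3. Klk1, Ackr3 and Oxtr are higher in both E2 groups than in the other groups, and mean Klk1 is 32.2 CPM in DOX E2 but 6.47 CPM in PBS E2. Calca, Calcb and Mme are high in the P4 groups.

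Of 22 genes that make, cut or inactivate these peptides, 21 passed the filter. With E2, 6 rose and 11 fell in the DOX arm and 6 rose and 8 fell in the PBS arm, with a median of log2 -0.86 in the DOX arm and -0.38 in the PBS arm, against -0.08 and -0.09 for all genes. Called genes were thus 17 of 21 in the DOX arm and 14 of 21 in the PBS arm, beside 72.6% and 61.4% of all genes in the same comparisons. Klk1, tissue kallikrein, which releases kinins from kininogen, had 25.9, 31.2 and 39.5 CPM in DOX E2, against 0.166, 0.321 and 0.158 CPM in DOX OIL. It had 11.9, 1.84 and 5.66 CPM in PBS E2, against 0.223, 0.650 and 0.326 CPM in PBS OIL. Its E2 differences were log2 7.19 ± 0.68 in the DOX arm (edgeR adjusted p = 1.16e-07) and 4.03 ± 0.61 in the PBS arm (edgeR adjusted p = 3.46e-05), and 3.22 in the PBS arm without PBS E2 replicate 1 (edgeR adjusted p = 0.000133). DOX E2 exceeded PBS E2 by 2.29 ± 0.48 (edgeR adjusted p = 0.00172), though Klk1 was not among the 4 processing genes with the smallest p in that contrast. Klk1 belongs to a tandem family of near-identical genes, so reads may be split among copies and its values are uncertain. Xpnpep1, an aminopeptidase that inactivates bradykinin, rose with E2 by 1.83 ± 0.14 in the DOX arm (edgeR adjusted p = 9.47e-09) and 0.95 ± 0.14 in the PBS arm (edgeR adjusted p = 1.78e-05). Xpnpep1 was also higher in DOX E2 than in PBS E2, by 0.86 ± 0.13 (edgeR adjusted p = 0.000184).

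Under P4 the processing list had 5 genes higher and 3 lower in the DOX arm and 4 higher and 3 lower in the PBS arm, with medians of log2 -0.12 in the DOX arm and -0.10 in the PBS arm, against -0.02 for all genes in either arm, of which 29.8% were called in the DOX arm and 31.8% in the PBS arm. The lower counts depended on single libraries: with any 1 library left out, 0 to 2 genes were lower in the DOX arm (0 without DOX P4 replicate 3) and 1 to 4 in the PBS arm (1 without PBS P4 replicate 2 or 3). Mme, neprilysin, which degrades bradykinin, substance P and adrenomedullin, had 256.6, 211.4 and 271.2 CPM in DOX P4, against 64.7, 78.4 and 84.1 CPM in DOX OIL. It had 199, 258.1 and 242 CPM in PBS P4, against 41.8, 47.0 and 82.8 CPM in PBS OIL. Both differences were called, at 1.70 ± 0.24 in the DOX arm (edgeR adjusted p = 0.000162) and 2.03 ± 0.24 in the PBS arm (edgeR adjusted p = 4.55e-05). Pcsk5, a proprotein convertase, rose with P4 by 1.37 ± 0.18 in the DOX arm (edgeR adjusted p = 8.64e-05) and 1.26 ± 0.18 in the PBS arm (edgeR adjusted p = 0.000163). For DOX against PBS under E2, 6 processing genes rose and 7 fell (4 fell without DOX E2 replicate 2), beside 41% of all genes called. Dpp4, a dipeptidyl peptidase, fell by 1.17 on the log2 scale (SE 0.15, edgeR adjusted p = 5.2e-05), and Pcsk5 rose by 1.19 ± 0.17 (edgeR adjusted p = 0.000106).

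All 22 signal transducer genes (G protein subunits, phospholipases, adenylyl cyclases, arrestins and others) passed the filter. With E2, 6 rose and 12 fell in the DOX arm and 7 rose and 9 fell in the PBS arm (4 fell in a fit of only the groups compared, and 5 without PBS E2 replicate 1), with medians of log2 -0.38 in the DOX arm and -0.33 in the PBS arm, against -0.08 and -0.09 for all genes. That is 18 and 16 called genes of 22, beside 72.6% of all genes called in the DOX arm and 61.4% in the PBS arm. Nos3, the endothelial nitric oxide synthase that acts downstream of Bdkrb2 and of adrenomedullin in vessels, rose by 2.69 ± 0.24 in the DOX arm (edgeR adjusted p = 6.19e-08) and 2.55 ± 0.24 in the PBS arm (edgeR adjusted p = 2.62e-07). In the same groups the summed blood endothelial markers were 1611 to 2044 CPM in DOX E2 against 1280 to 1605 CPM in DOX OIL, and 1194 to 2009 CPM in PBS E2 against 1260 to 1576 CPM in PBS OIL. Of those 14 markers 4 rose and 5 fell in the DOX arm, and 3 rose and 3 fell in the PBS arm. Single markers weighed on the sums: mean Eng was 519.5 CPM in DOX E2 against 109.9 in DOX OIL, while mean Cldn5 was 13.7 against 89.14 CPM. The part of these markers in the Nos3 result was not tested. Arrb1, a beta-arrestin that uncouples receptors from G proteins, fell with E2 by 1.66 on the log2 scale in the DOX arm (SE 0.13, edgeR adjusted p = 1.55e-08) and by 1.22 in the PBS arm (SE 0.13, edgeR adjusted p = 9.39e-07). The adenylyl cyclase Adcy6 had 79.9, 80.0 and 79.9 CPM in DOX E2, against 125, 208 and 186 CPM in PBS E2, a difference of -1.11 ± 0.13 (edgeR adjusted p = 2.44e-05). In that contrast 1 of the 22 rose and 8 fell, a called share near the 41% of all genes, with a median of log2 -0.19 against 0.02 for all genes. Only 5 fell without DOX E2 replicate 2 or without PBS E2 replicate 2, and 10 without PBS E2 replicate 1. With the adipocyte score as covariate, 5 of the 22 were lower in DOX E2, as were 3 of the 21 processing genes.

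As a comparison set, 18 receptors for other vasoactive peptides all passed the filter. With E2, 4 rose and 9 fell in each arm, with a median of log2 -1.46 in the DOX arm and -0.39 in the PBS arm, against -0.08 and -0.09 for all genes. The 13 of 18 called in each arm stand beside 72.6% of all genes in the DOX arm and 61.4% in the PBS arm. Oxtr, the oxytocin receptor, rose by 3.69 ± 0.32 in the DOX arm (edgeR adjusted p = 3.96e-08) and 3.32 ± 0.31 in the PBS arm (edgeR adjusted p = 2.7e-07), a size near that of Bdkrb2. The angiotensin receptor gene Agtr1a fell by 3.88 on the log2 scale in the DOX arm (SE 0.36, edgeR adjusted p = 9.05e-08) and by 1.98 in the PBS arm (SE 0.33, edgeR adjusted p = 7.51e-05). For DOX against PBS under E2, 1 of the 18 rose and 8 fell, with a median of log2 -0.37, beside 41% of all genes called, 20.6% as lower. Without PBS E2 replicate 3, 4 fell, and with the adipocyte score as covariate 3 rose and 5 fell. Npr3, the natriuretic peptide clearance receptor, had 4.91, 5.26 and 7.02 CPM in DOX E2 libraries and 32.3, 18.1 and 21.2 CPM in PBS E2 libraries (log2 -2.06 ± 0.22, edgeR adjusted p = 1.1e-05). Under P4, 3 rose and 3 fell in the DOX arm and 3 rose and 5 fell in the PBS arm, beside 29.8% and 31.8% of all genes called. With any 1 library left out, 1 to 2 rose in the DOX arm (1 without DOX P4 replicate 1 or 3, or DOX OIL replicate 1) and 1 to 4 in the PBS arm (1 without PBS P4 replicate 1 or PBS OIL replicate 1).

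The genes whose log2 CPM followed each member most closely over the 18 libraries were taken from 12096 candidates, as a description in which all points share the 6 groups. For Ramp3 they were U2af1 (Pearson r = 0.993), Snrnp40 (0.993) and Rsl1d1 (0.993), which encode RNA splicing and ribosome assembly factors. Bdkrb2 was followed by the splicing factor genes Srsf3 (0.981) and Lsm2 (0.9805) and by E2f4 (0.978). Adm was followed by Sf1 (0.982), Adnp2 (0.977) and Cnbp (0.977). Bdkrb1 was nearest to Mapkapk2 (0.979), a stress-activated kinase gene, Itga2 (0.977) and Dbnl (0.977). Tacr1 was nearest to Birc3 (0.928), an inhibitor of apoptosis, with Nfxl1 (0.921) and Rnf169 (0.919). Ramp1 was followed by Dhrs1 (0.987), Spock2 (0.986) and Zfp454 (0.984). Calcrl had Ifi203 (0.891), Rtp4 (0.883) and Ifi44 (0.879), which are interferon-inducible genes, and Ramp2 had Ntng2 (0.860), Gdf11 (0.857) and Rims3 (0.845).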

How the data were processed

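Per the labels, RNA of homogenised uterus was purified by Trizol and libraries came from a TruSeq total RNA kit. The authors deposited raw counts, 1 per gene symbol and library, with 2904 symbols at 0 in all libraries. The submitters' processing notes name build GRCm38 and, in no stated order, HISAT2 2.1.0, StringTie 1.3.4d, SAMtools 1.6, Trimmomatic 0.36, FastQC 0.11.5, R 3.4.4 and DESeq2 1.18.1. How counts were made (tool, annotation, strand) is not stated in the sources used here.

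Libraries were grouped by hormone and DOX labels. In edgeR 4.0.16 (R 4.3.3), filterByExpr left 15494 genes, and a robust quasi-likelihood model of the 6 groups with 12 residual degrees of freedom was fitted to the TMM-scaled counts. The SE is the log2 fold change divided by the square root of F. RPKM and positions use GENCODE M21 exons, and promoters are RefSeq's on GRCm38.p6. Exact permutation tests were used for shares of RPKM. The model was checked on simulated counts. No pair of libraries in a group was a copy (chi-square per degree of freedom 15.7 to 69.4).

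The members, lists, tests and alternatives were chosen with earlier results of these data known. Named genes are the 9 members, of each list up to 4 called genes with the smallest p in a comparison described (fewer are printed), Klk1 in a further contrast, and the 3 nearest genes by correlation (prior count 2, mean log2 CPM of at least 1). Older symbols matched 2 of the 151 list entries, with 0 missing. Marker lists not described elsewhere were those of macrophages, mast cells, and nerve and glia. They had 0, 1 and 1 called genes of 7, 6 and 7 in DOX against PBS under E2, beside 41% of all genes. Alternatives were DESeq2 size factors, DESeq2 1.42.0, no filter, a stricter filter (1 CPM in 3 libraries), only the groups compared, a replicate block, an adipocyte score as covariate, raw or principal-transcript lengths for shares, and leaving out each library. The principal-transcript length was added after seeing the data.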

Additional observations from a re-analysis of the deposited data

How the results depend on the processing

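Estradiol calls of Bdkrb1, Bdkrb2, Ramp1, Ramp3 and Adm, and progesterone calls of Ramp1 in both arms and of Adm in the DOX arm, kept their direction and side of the threshold under each alternative run. Without 1 library the E2 difference in the PBS arm ranged from 4.14 to 4.73 for Ramp3, 1.75 to 2.63 for Bdkrb1, 1.72 to 1.97 for Adm and -1.52 to -1.27 for Ramp1. The cause of the changes below was not tested. With an adipocyte score as covariate, 3491 genes were called for DOX under E2 (6358 as reported) and 3066 for P4 in the PBS arm (4930), and 1 of the genes studied was lower with E2 in the DOX arm. DESeq2 called 21 genes for DOX under OIL, 10 under P4 and 2 for the P4 by DOX interaction. The replicate block and the adipocyte covariate gave 0 for DOX under OIL, and the same 2 settings, the stricter filter and a fit of only the groups compared gave 0 for the P4 by DOX interaction. Under P4 in the DOX arm, 2 of the genes studied were higher with DESeq2 size factors, with DESeq2 and with only the groups compared. Deviations of same-numbered libraries from their group means had a median r of -0.028, with 12 of 45 pairs over 0.1. Differently numbered pairs had a median r of -0.014, with 23 of 90 over 0.1. The numbers were therefore not used as pairs, though with 3 libraries per group this check cannot exclude a pairing. With the replicate block, 3 of the genes studied were higher with P4 in the DOX arm (Ramp1, Ramp2 with an edgeR adjusted p of 0.0418, and Ramp3 with 0.0108) and 2 were lower with E2 in the PBS arm (Ramp1, and Calcrl with 0.0478). With 1 library left out, the counts of genes studied were 1 to 2 lower with E2 in the DOX arm, 1 to 2 lower with E2 in the PBS arm, 1 to 2 higher with P4 in the DOX arm and 0 to 1 lower with P4 in the PBS arm. Called genes then ranged from 3057 to 3896 for P4 in the DOX arm, 3146 to 4460 for P4 in the PBS arm, 0 to 2 for DOX under OIL and 0 to 1 for the P4 by DOX interaction; the lowest P4 counts came without DOX P4 replicate 3 and PBS P4 replicate 3.

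Uncalled differences near 0 changed sign. Ramp1 for DOX under OIL was -0.005 with DESeq2 size factors and with DESeq2, -0.002 with no filter, -0.003 with the block, -0.179 with the adipocyte covariate and -0.009 with only the groups compared, and -0.142 to 0.089 without 1 library. Under P4 it was -0.003 with the block and -0.084 to 0.135 without 1 library. Its P4 by DOX interaction was 0.011 with DESeq2 size factors and with DESeq2, 0.012 with no filter, 0.002 with the stricter filter, 0.001 with the block, 0.204 with the adipocyte covariate, 0.01 with only the groups compared, and -0.088 to 0.144 without 1 library. The adipocyte covariate gave 0.207 for Bdkrb1 for DOX under OIL and 0.135 for Calcrl for P4 in the PBS arm. Without 1 library, DOX under OIL ranged from -0.373 to 0.509 for Bdkrb1, -0.372 to 0.813 for Bdkrb2 and -0.27 to 0.747 for Tacr1. P4 in the DOX arm ranged from -0.282 to 0.213 for Bdkrb1 and -0.312 to 0.018 for Calcrl, and P4 in the PBS arm from -0.208 to 0.062 for Calcrl and -0.174 to 0.41 for Ramp3. E2 in the PBS arm ranged from -0.422 to 0.425 for Tacr1, and the P4 by DOX interaction from -0.111 to 0.986 for Tacr1 and -0.262 to 0.069 for Calcrl. The E2 by DOX interaction, given with no test, ranged from -0.202 to 0.984 for Bdkrb2.

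Ramp3's share from raw counts was 91.9% in DOX E2, 76.9% in PBS E2, 7.03% in DOX P4, 7.32% in PBS P4, 7.18% in DOX OIL and 11.1% in PBS OIL. With principal transcript lengths, chosen after seeing the data, it was 92.1%, 78.5%, 9.14%, 9.43%, 8.87% and 13.8% in the same groups. Depth limits Tacr2, the low ligand genes and Tacr1 outside DOX E2.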
